A study of Mus musculus with 37 samples.

Results

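Genes that release, admit, store, remove or answer to calcium in the mouse egg were followed in 37 single oocytes. The 10 genes, Itpr1, Itpr2, Trpm7, Cacna1h, Orai1, Stim1, Atp2a2, Atp2b1, Camk2g and Ppp3ca, were chosen by symbol for their known part in egg activation, out of 54752 genes in the table of expected counts. All 10 were found in the gene tables, with 98 annotated transcripts. At fertilisation the sperm brings phospholipase C zeta, which makes inositol trisphosphate (IP3), and IP3 opens receptors on the endoplasmic reticulum so that calcium leaves the store in repeated waves. Pumps return the calcium to the store or expel it, channels of the plasma membrane let in more to refill the store, and a calcium and calmodulin dependent kinase ends the arrest at metaphase II. The egg meets the sperm at that arrest, and the store and its receptors are known to be prepared for it while the oocyte matures.

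The study profiled single oocytes from C57BL/6 females of 6 to 8 weeks at the germinal vesicle (GV) stage, metaphase I (MI) and metaphase II (MII), to follow transcripts and their isoforms through maturation. Ovaries primed with PMSG for 48 h supplied the GV oocytes, and 8 h of culture of such oocytes in M16 medium gave those at MI. The MII oocytes had matured in the animal and been ovulated, and were taken at 15 h from an hCG dose given 48 h after PMSG. Batch A held 6 GV and 6 MII oocytes and batch B held 10 GV and 15 MI oocytes, so MI and MII were never prepared together, and batch, stage and place of maturation cannot be told apart between them. Beyond these hormones and the culture, no treatment or genetic change is named. The zona and polar body were removed, and each oocyte gave 1 library by the Smart-seq2 method, which copies RNA from its poly(A) tail. The labels do not say how many females gave the oocytes, so each adjusted p below measures the spread between oocytes. Because copying starts at the tail, the number of RNA molecules and the state of their tails cannot be told apart in these counts.

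Depth, as total expected counts per oocyte, ran from 7509875 to 12648629 in GV and from 9930485 to 13988444 in MII of batch A. In batch B it ran from 7184205 to 17724506 in GV and from 2709280 to 19390128 in MI. At such depths a count of 0 allows up to 3 counts, which is 0.228 to 0.369 CPM (counts scaled to library size) in GV of batch A and 0.129 to 1.64 CPM in MI, counting error alone. All 12 oocyte markers, among them Gdf9, Zp3 and Mos, were detected in each of the 37 oocytes, and their summed level had a median of 13934 CPM in GV and 9042 CPM in MII of batch A, and of 5123 CPM in GV and 4427 CPM in MI of batch B. Granulosa and cumulus markers summed to medians of 44.9, 39.6, 36.4 and 37.4 CPM in the same order. Cyp19a1 was the most abundant in the first 3 groups and Nr5a2 in MI. Of these 15 markers 13, 15, 11 and 11 were detected in at least 1 oocyte of the group. Foxl2, Amh, Amhr2 and Ptx3 were at 0 in batch B.

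A few libraries stood apart. MII oocyte 1 of batch A had 29518 genes detected against 22244 in the next of its group, and its 8 blood and immune markers summed to 16.6 CPM, against a median of 0.416 CPM in MII. MI oocyte 15 had the lowest depth, 2709280 counts, and 12505 genes detected. In MI oocytes 4, 8 and 9 the deposited HTSeq counts came to 0.686 to 0.810 times the RSEM counts, leaving out 1 gene like ribosomal RNA, against 1.21 to 1.63 times in the other 34 oocytes. Spike-in sequences made up 0.591% to 1.47% of the counts in GV and 0.979% to 1.40% in MII of batch A and were nearly absent from batch B. The part of these libraries in any result was not tested beyond leaving them out.

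Per transcript length, Atp2a2 and Camk2g led in batch A. In TPM, counts scaled by transcript length and library, GV oocytes of batch A had medians of 107 for Atp2a2 and 105.0 for Camk2g, then 30.3 for Atp2b1, 28.3 for Orai1, 25.7 for Itpr2 and 21.8 for Itpr1, 12.0 for Trpm7, and 4.11 for Cacna1h, 4.00 for Ppp3ca and 0.901 for Stim1. The ranges of Camk2g and Atp2b1 did not overlap in that group, nor did those of Trpm7 and Cacna1h, whereas each other pair of neighbours in the order overlapped. MII oocytes kept Atp2a2 and Camk2g on top, with TPM medians of 119.9 and 98.5, and placed Orai1 at 14.5, below Itpr2 at 29.6 and Itpr1 at 22.5. There the ranges of Camk2g and Atp2b1, of Orai1 and Trpm7 and of Trpm7 and Ppp3ca did not overlap. In batch B, Camk2g led with median TPM of 135 in GV and 132 in MI, followed by Atp2b1 with 96.6 and 131, Atp2a2 with 79.8 and 91.9 and Itpr1 with 52.9 and 58.3, and the ranges of all these neighbours overlapped. Lower in the order, Trpm7 and Ppp3ca did not overlap in GV, whereas in MI the ranges of all neighbours overlapped. Stim1 had the lowest median in each of the 4 groups. The TPM rest on how RSEM divided each gene's counts among its transcripts, which for Atp2b1 differed between the batches. The CPM below depend on the counts and the scale, since on HTSeq counts 33 of the 40 medians were higher by over 1 SD, such as 298 against 176 CPM for Itpr1 and 137 against 70.9 CPM for Itpr2 in GV of batch B.

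**Figure D1:**
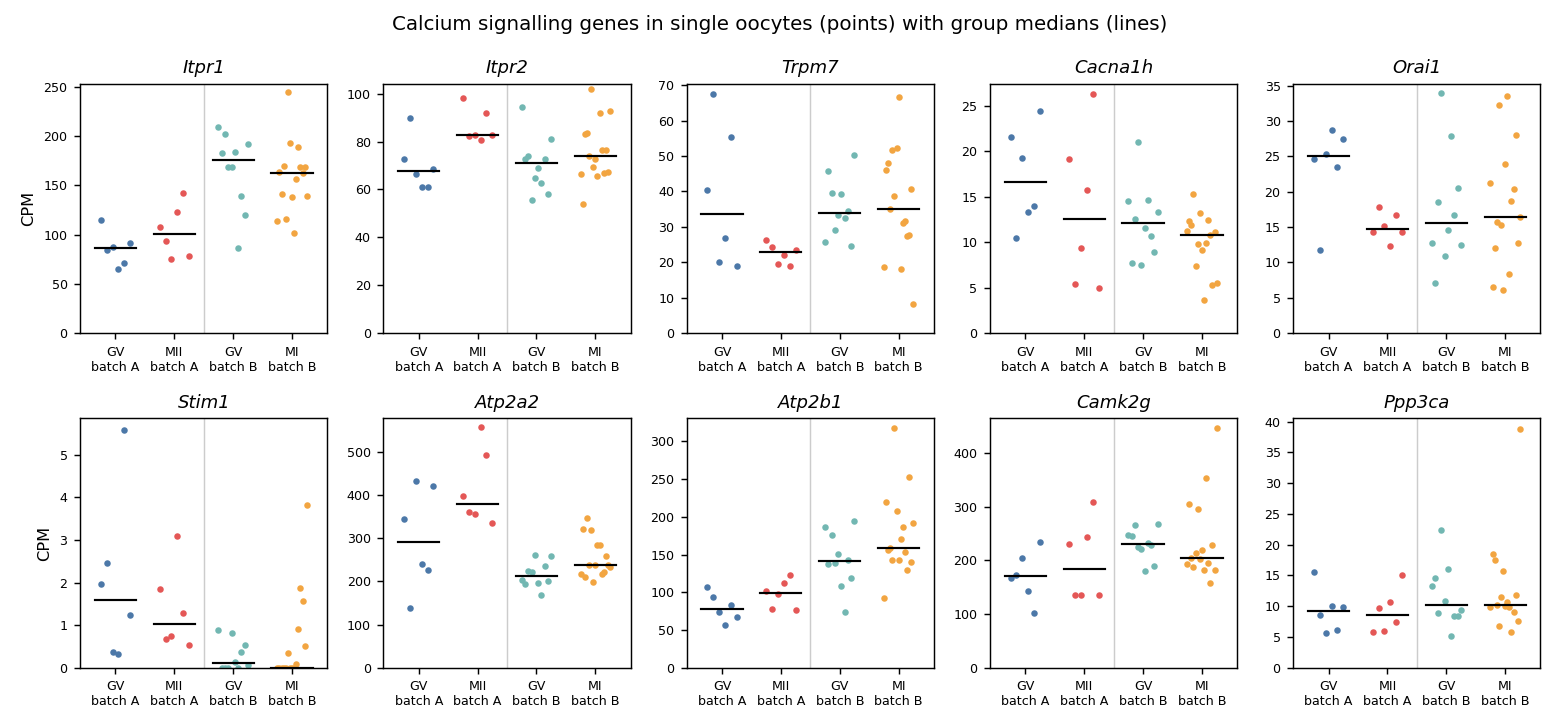
Level of each gene in CPM (vertical axis, from 0) in single oocytes, grouped by stage and batch; each point is 1 oocyte and each line the group median. Orai1 is above the highest MII oocyte in 5 of 6 GV oocytes of batch A, and Stim1 is at 0 in 4 GV and 8 MI oocytes of batch B.

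Between GV and MII, within batch A, the comparison asks which of these genes differ between the oocyte before maturation and the egg ready for sperm. Orai1 fell, to about 0.641 of its GV level, and no other of the 10 genes passed edgeR's quasi-likelihood test at an adjusted p under 0.05. That is 1 of 10 genes, where 20.6% of the 12929 genes tested passed, so the share of these genes that changed was no larger than in the whole table, where 2662 passed, 5596 with library sizes from the spike-ins and 1234 with all 37 oocytes fitted. At an unadjusted p under 0.05 there were 3, Orai1, Trpm7 and Itpr2, against 34.3% of all genes, and DESeq2 passed 2, Orai1 and Trpm7, and 3192 of the whole table. None reached the study's own call of a passed test with a fold change over 2, which 8.47% of all genes met. With spike-in library sizes Orai1, Trpm7 and Cacna1h reached that call, as did 3919 of the 12929 genes. In none of the 10 did GV and MII lie fully apart in CPM, against 9.79% of all genes. The log2 changes of the 10 genes had a median of 0.09, with 5 higher and 5 lower, beside a median of 0.01 over all genes.

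The IP3 receptors let calcium out of the store, and Itpr1 encodes the main one of the mouse egg. Itpr1 (chr6:108213096-108551109 in GRCm38) ranged from 65.4 over a median of 86.1 to 115 CPM in GV and from 75.1 over 100.4 to 142 CPM in MII. Oocytes of both stages overlapped, with 4 of 6 MII oocytes above the GV median, and the log2 change was 0.27 (SE 0.18, adjusted p = 0.314). Itpr2, a second receptor, had 60.9, 67.5 and 89.8 CPM as lowest, median and highest in GV, and 80.7, 82.6 and 98.2 CPM in MII. All 6 MII oocytes were above the GV median and 5 of 6 GV oocytes were below the lowest MII oocyte, with GV oocyte 2 of batch A alone at 89.8 CPM. The log2 change of Itpr2 was 0.31 (SE 0.13, adjusted p = 0.102), and without GV oocyte 2 it passed the test (adjusted p = 0.0289). With library sizes taken from the spike-ins, a scale that moved the median log2 change of all genes from 0.01 to -0.72, both receptors had negative values, -0.50 for Itpr1 and -0.44 for Itpr2, neither passing. The gene Gm44087 lies inside Itpr2 on the other strand with a mean of 4749 CPM, and shares 0 exon bases with it.

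Channels of the plasma membrane bring calcium in, and Trpm7 and Cacna1h do so in the mouse egg while the store fills. Trpm7, a channel joined to a kinase, ranged from 18.9 over 33.6 to 67.5 CPM in GV and from 19.0 over 22.8 to 26.2 CPM in MII. The GV oocytes were widely spread, with oocyte 2 at 67.5 and oocyte 5 at 55.4 CPM, while the 6 MII oocytes lay close together and all below the GV median. The log2 change of Trpm7 was -0.77 (SE 0.28, adjusted p = 0.0582), short of the threshold. It passed with DESeq2 (adjusted p = 0.0310), with no filter on low counts (0.00540), with spike-in library sizes (0.00104), and when GV oocyte 3 (0.0305) or GV oocyte 6 (0.0227) was left out, and over the 8 alternatives its adjusted p ran from 0.00104 to 0.157. Without GV oocyte 2 the log2 change was -0.53 (adjusted p = 0.153) and without GV oocyte 5 it was -0.63 (adjusted p = 0.141). These oocytes also had the highest summed oocyte markers of batch A, 18937 and 19102 CPM, and a link to Trpm7 was not tested. Cacna1h, which encodes a T-type calcium channel, ranged from 10.5 over 16.6 to 24.5 CPM in GV and from 4.97 over 12.5 to 26.3 CPM in MII. Both stages spread over most of the same range, although 3 MII oocytes lay below every GV oocyte, and the log2 change was -0.35 (SE 0.365, adjusted p = 0.537), passing with spike-in library sizes at -1.09 (adjusted p = 0.0343).

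Orai1 forms the channel that opens when the store runs low, and Stim1 is the sensor in the store that opens it. Orai1 (chr5:123015074-123030456, plus strand) ranged from 11.7 over 25.0 to 28.8 CPM in GV and from 12.4 over 14.7 to 17.8 CPM in MII. Of the 6 GV oocytes 5, at 23.5 CPM or more, lay above every MII oocyte, and GV oocyte 2, at 11.7 CPM, lay below them all. The log2 change was -0.64 (SE 0.20, adjusted p = 0.0340), lower in 6 of 6 MII oocytes than the GV median, and without GV oocyte 2 it was -0.78 (adjusted p = 0.00334). The call lies near the threshold, since the log2 change stayed between -0.78 and -0.58 without each oocyte in turn while the test passed in 3 of these 12 fits. The adjusted p was 0.0573, 0.0625, 0.0778, 0.0592 and 0.0663 without GV oocytes 1, 3, 4, 5 and 6, and 0.0632, 0.0556, 0.0781 and 0.0625 without MII oocytes 1, 3, 4 and 6. The call was also lost when all 37 oocytes were fitted with batch as a term (adjusted p = 0.359). Its direction was the same under all 8 alternatives and without each oocyte in turn, at log2 changes from -1.37 to -0.58.

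A gene of the opposite strand begins inside the first exon of Orai1. Gm2479 (chr5:123007299-123015080, minus strand), annotated as antisense, shares 7 exon bases with Orai1, and it is not stated whether reads were counted by strand, so reads over these bases cannot be told apart. Gm2479 ranged from 23.0 over 36.3 to 67.7 CPM in GV and from 12.6 over 19.8 to 29.7 CPM in MII, with a log2 change of -0.87 (SE 0.24, adjusted p = 0.0186). It was chosen for its position, and its part in the values of Orai1 was not tested.

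**Figure D2:**
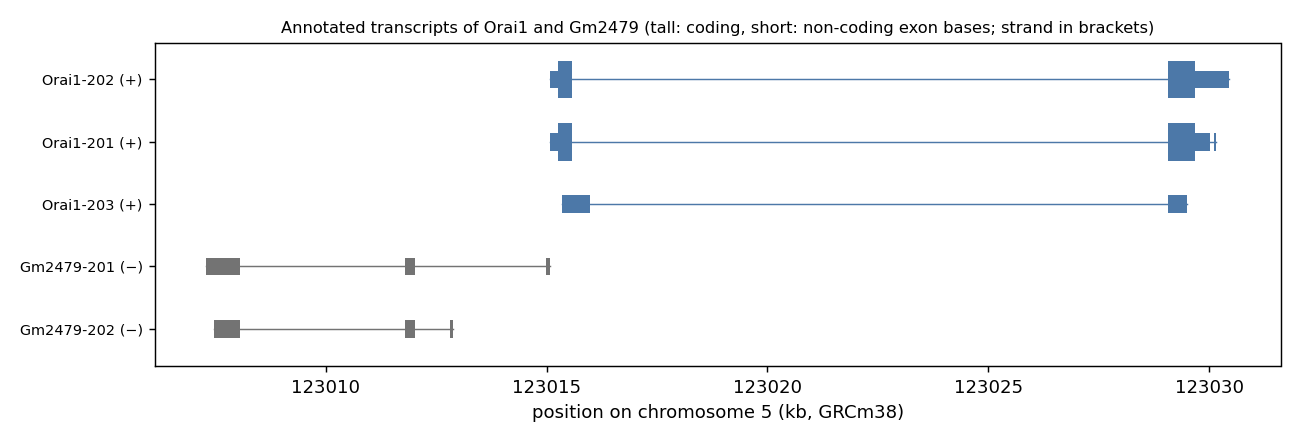
Annotated transcripts of Orai1 (blue, plus strand) and Gm2479 (grey, minus strand) along chromosome 5 in kb of GRCm38; tall boxes are coding bases, short boxes non-coding exon bases and lines introns. The first base of Gm2479, 123015080, lies 7 bases into the first exon of Orai1.

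Stim1 was scarce. Its expected counts ran from 3 over 16.0 to 62 in GV and from 5 over 11.0 to 35 in MII of batch A, or 0.332 over 1.60 to 5.57 CPM and 0.528 over 1.02 to 3.09 CPM. A single GV oocyte, at 5.57 CPM, lay above every MII oocyte and 2 GV oocytes lay below them all. The log2 change was -0.53 (SE 0.62, adjusted p = 0.579) and turned to 0.11 without GV oocyte 5, so no direction was detectable at this depth.

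Of the 10 genes 2 encode pumps that clear calcium, and neither passed. Atp2a2 encodes the pump SERCA2, which returns calcium to the store, and had 139, 292 and 433 CPM as lowest, median and highest in GV and 337, 379.8 and 557 CPM in MII. All 6 MII oocytes were above the GV median, 3 GV oocytes were below every MII oocyte, and the log2 change was 0.47 (SE 0.24, adjusted p = 0.168). Atp2b1 encodes a pump of the plasma membrane that expels calcium, and ranged from 57.4 over 78.1 to 108 CPM in GV and from 76.5 over 99.7 to 123 CPM in MII. The stages overlapped, with 4 of 6 MII oocytes above the GV median and a log2 change of 0.29 (SE 0.17, adjusted p = 0.243). With spike-in library sizes both pumps turned negative, to -0.29 for Atp2a2 and -0.51 for Atp2b1, without passing.

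Neither of the genes that answer to calcium passed. Camk2g encodes the kinase that releases the egg from its arrest, and ranged from 102 over 170.5 to 235 CPM in GV and from 135 over 183 to 309 CPM in MII. Without TMM scaling the medians stood in the other order, 187 CPM in GV and 172 CPM in MII. Of the MII oocytes 3 were above and 3 below the GV median, and the log2 change was 0.22 (SE 0.23, adjusted p = 0.545), turning to -0.49 with spike-in library sizes. Ppp3ca, a catalytic subunit of the phosphatase calcineurin, ranged from 5.62 over 9.27 to 15.6 CPM in GV and from 5.77 over 8.58 to 15.0 CPM in MII. The ranges were nearly the same, and the log2 change was -0.03 (SE 0.29, adjusted p = 0.957). With spike-in library sizes the genes that passed were Orai1 at -1.37, Trpm7 at -1.56 and Cacna1h at -1.09, where 5596 of the 12929 genes passed, 5452 of them lower.

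**Figure D3:**
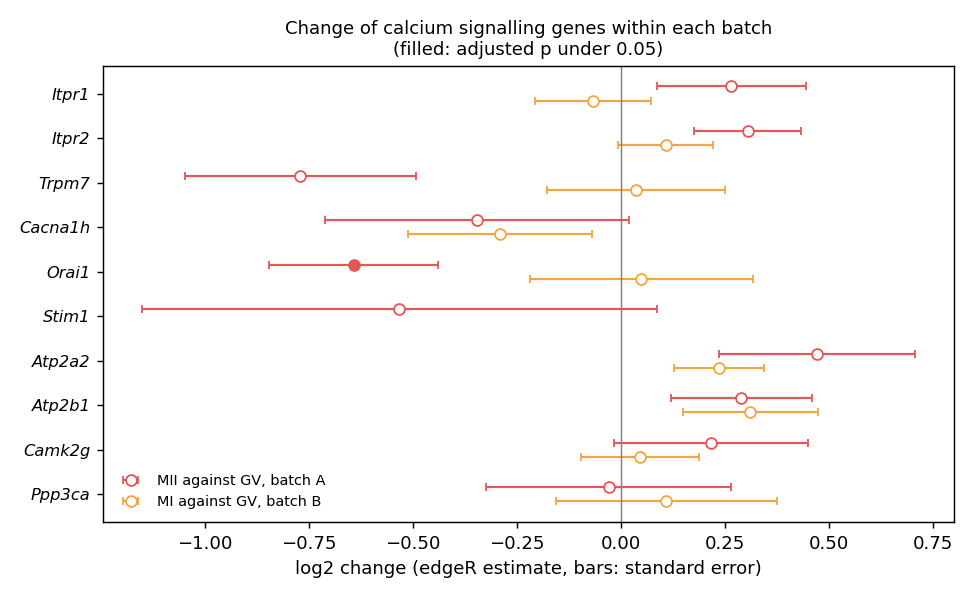
Log2 change of each gene (horizontal axis) from GV to MII in batch A and from GV to MI in batch B, with bars of 1 standard error; filled points passed at an adjusted p under 0.05. Orai1 in batch A, at -0.64, is the single filled point, and it stayed lower while Itpr1, Itpr2, Atp2a2, Atp2b1 and Camk2g turned lower with spike-in library sizes; Stim1 was too scarce to be tested in batch B.

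A single transcript passed as well. Of 23 transcripts of these genes tested between GV and MII, 1 passed, Orai1-202, where 9.3% of the 22461 transcripts tested did. Orai1-202 had expected counts of 133 over 211 to 305 in GV and of 62.7 over 98.4 to 177 in MII, and a log2 change of -0.97 (SE 0.26, adjusted p = 0.0359). The GV median lay above every MII oocyte, yet the ranges overlapped, and the call was lost at about the same log2 change, -1.03 without MII oocyte 1 (adjusted p = 0.0516) and -1.01 without the filter on low counts (adjusted p = 0.0864). No other oocyte was left out for transcripts of batch A, and the test passed in 3 of the 6 alternatives run, that fit included. The other coding transcript, Orai1-201, ends its 3′ untranslated region in a further exon and had a log2 change of 0.74 (SE 0.85, adjusted p = 0.666). At an unadjusted p under 0.05 there were 4 transcripts, against 24.2% of all transcripts, and DESeq2 passed 2, and 3419 of the whole table.

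As a share of its gene, Orai1-202 made up 86.5% ± 5.08 (SD, n = 6) in GV and 69.9% ± 25.5 in MII, and Orai1-201 made up 10.6% ± 6.05 and 29.3% ± 24.8. These and all shares below were inferred by RSEM from short reads, an inference in which the paper sees large uncertainty. How much of their spread between oocytes comes from it was not tested. The 6 GV oocytes were alike, between 79.1% and 93.2% of Orai1-202, whereas MII oocytes 2, 3 and 6 had 42.3%, 53.2% and 46.3% and the other 3 had 85.9% or more. In edgeR's test of transcript usage, which sets each transcript against its gene, 0 of 20 transcripts in 7 of the genes passed, where 2.0% of 15586 did; 1 had an unadjusted p under 0.05, against 7.96% of all, and limma passed 0, and 637 of the whole table. Neither Orai1-202 (adjusted p = 1) nor Orai1-201 (adjusted p = 0.899) passed it, so the change of Orai1 was not shown to lie in 1 of them. The length of the 3′ untranslated region, weighted by transcript counts, was tested in 8 of the genes with limma and passed in 0, where 4.53% of 5211 genes passed, and 0 had an unadjusted p under 0.05, against 13.1% of all. For Orai1 that length had a median of 735 bases in GV and 659 bases in MII, ranging from 700.3 to 761 and from 553 to 776, and its log2 change was -0.17 (SE 0.09, adjusted p = 0.498).

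**Figure D4:**
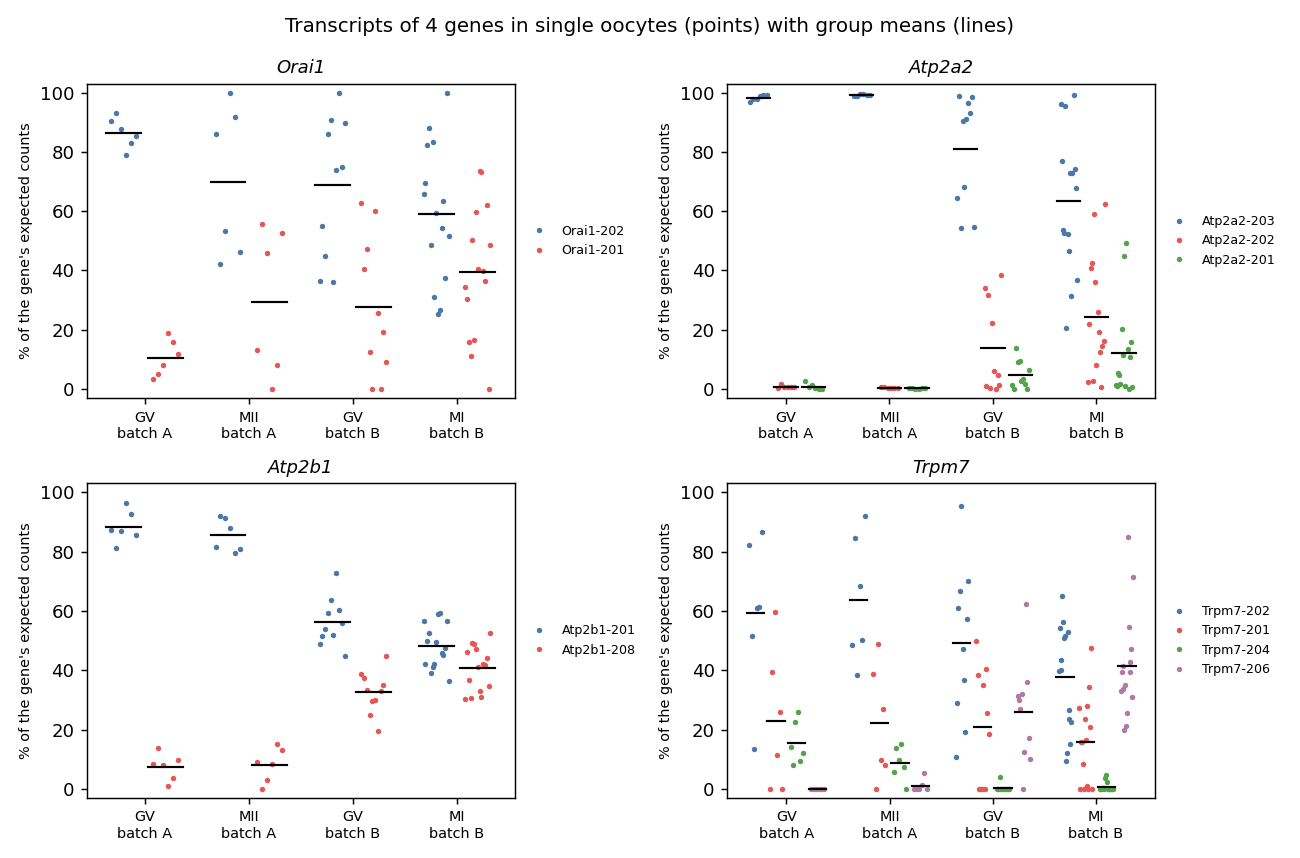
Share of each gene's expected counts (vertical axis, %) held by its named transcripts in single oocytes (points) with group means (lines), for Orai1, Atp2a2, Atp2b1 and Trpm7. Orai1-202 lies between 79.1% and 93.2% in GV of batch A and is spread from 42.3% to 100% in MII.

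Itpr1, Itpr2, Camk2g and Ppp3ca were each carried by 1 main transcript. Itpr1-205 held 75.0% ± 18.4 of Itpr1 in GV and 88.1% ± 14.5 in MII of batch A, and 81.1% ± 8.28 in GV and 82.0% ± 10.3 in MI of batch B. The next, Itpr1-201, held 22.5%, 8.64%, 12.5% and 11.1% in the same order, and differs by 3 coding bases, printed here to show the small splice choice within the receptor, with the extra bases in capitals.
Itpr1-201: gaactccacagagCAGgagcttgaaccaag
Itpr1-205: gaactccacagaggagcttgaaccaag

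Itpr2-202 held means from 89.7% to 94.5% of Itpr2, Ppp3ca-202 from 91.9% to 95.7% of Ppp3ca and Camk2g-203 from 79.4% to 84.5% of Camk2g over the 4 groups. The assigned shares of Cacna1h differed from oocyte to oocyte, and Cacna1h-202 and Cacna1h-205 each ran from 0 to 100% in MI. The gene had 10 to 308 expected counts there, and the part of inference error in these shares was not tested. Cacna1h-201 was at 0 in all GV and MI oocytes and held 32.6% ± 47.3 in MII, from 2 oocytes with most of their counts on it. Of Stim1, Stim1-201 held 82.8% ± 25.6 in GV and 61.7% ± 41.7 in MII of batch A, and 5 more of its transcripts, Stim1-203, Stim1-205, Stim1-206, Stim1-207 and Stim1-209, reached 10% in a group on a few counts.

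Trpm7 was divided among 4 transcripts. Trpm7-202 and Trpm7-201 held 59.3% ± 26.3 and 22.7% ± 23.7 in GV and 63.7% ± 21.5 and 22.1% ± 19.3 in MII of batch A. They differ by 3 coding bases, in capitals, again a small splice choice.
Trpm7-202: cactcggtgcaagCAGaaagctgtagtaga
Trpm7-201: cactcggtgcaagaaagctgtagtaga

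The other named Trpm7 transcripts are annotated with a retained intron. Trpm7-204 held 15.4% ± 7.24 in GV and 8.68% ± 5.56 in MII, with a log2 change of -1.39 (SE 0.64, adjusted p = 0.201), and under 1% on average in batch B. Trpm7-206 was at 0 in GV of batch A, held 1.11% ± 2.12 in MII, and held 25.8% ± 17.3 in GV and 41.4% ± 17.8 in MI of batch B. Its log2 change from GV to MI was 0.55 (SE 0.41, adjusted p = 0.920), while its spread between the batches was seen but not tested.

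SERCA2 comes in forms with different ends, and Atp2a2-203 held nearly all of Atp2a2 in batch A, 98.2% ± 0.989 in GV and 99.1% ± 0.288 in MII. In batch B it held 81.0% ± 18.4 in GV and 63.3% ± 24.04 in MI, with Atp2a2-202 at 14.0% ± 15.8 and 24.4% ± 19.8 and Atp2a2-201 at 4.86% ± 4.72 and 12.2% ± 15.6. The annotation lists Atp2a2-203 under nonsense-mediated decay although its coding sequence, of 1044 codons before the stop, is the same as that of Atp2a2-201, whereas that of Atp2a2-202 has 998. The last coding bases are printed to show the 2 ends, with the stop codon in capitals.
Atp2a2-201: actaactttagcgatatgttctggtctTGA
Atp2a2-202: tacctggaacaacccgcaatactggagTAA
Atp2a2-203: actaactttagcgatatgttctggtctTGA

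Atp2b1 was divided unlike between the batches as well. Atp2b1-201 held 88.4% ± 5.45 in GV and 85.5% ± 5.68 in MII of batch A, against 56.3% ± 8.10 in GV and 48.2% ± 7.35 in MI of batch B. Atp2b1-208 held 7.40% ± 4.58, 8.13% ± 5.81, 32.6% ± 7.18 and 40.6% ± 7.49 in that order. From GV to MI the log2 change of Atp2b1-208 was 0.59 (SE 0.25, adjusted p = 0.614).

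From GV to MI, within batch B, the comparison asks what differs after 8 h of culture, when the oocyte has left the GV stage. None of the 9 genes tested passed, with the closest values in the pumps Atp2a2 and Atp2b1, and 0.145% of the 12419 genes tested passed in the whole table, or 0.121% with a fold change over 2. That share, 18 genes, is unsteady, with 0 to 97 passing without 1 oocyte, 177 with DESeq2 and 0 on HTSeq counts. By edgeR 1 of the 9, Atp2a2, had an unadjusted p under 0.05, against 11.0% of all genes, and DESeq2 and HTSeq counts passed 0 of these genes. In no gene, of the 10 or in the table (0.0%), were all MI oocytes apart from all GV oocytes in CPM. The 9 log2 changes had a median of 0.05, beside 0.02 over all genes.

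Atp2a2 ranged from 169 over 213 to 262 CPM in GV and from 199 over 238 to 346 CPM in MI. Of the 15 MI oocytes 13 lay above the GV median, and the log2 change was 0.24 (SE 0.11, adjusted p = 0.4001). Atp2b1 ranged from 74.2 over 141 to 194 CPM in GV and from 92.7 over 159 to 318 CPM in MI, with 12 of 15 MI oocytes above the GV median and a log2 change of 0.31 (SE 0.16, adjusted p = 0.485). Itpr1 ranged from 86.2 over 176 to 209.6 CPM in GV and from 102 over 163 to 245 CPM in MI. Here 12 of 15 MI oocytes lay below the GV median within an overlapping range, at a log2 change of -0.07 (SE 0.14, adjusted p = 0.917). Itpr2 ranged from 55.7 over 70.9 to 94.4 CPM in GV and from 53.7 over 73.9 to 102 CPM in MI, with a log2 change of 0.11 (SE 0.11, adjusted p = 0.796).

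The entry channels lay over one another in GV and MI. Trpm7 ranged from 24.58 over 33.9 to 50.1 CPM in GV and from 8.21 over 35.1 to 66.6 CPM in MI. Its lowest MI value, on 15 counts, came from MI oocyte 15, the library of lowest depth. The log2 change was 0.04 (SE 0.21, adjusted p = 0.975). The MI oocytes were the more widely spread, 3 above and 3 below all GV oocytes, and the sign held in 20 of the 25 fits that left out 1 oocyte, the lowest being -0.05 without MI oocyte 8. Cacna1h ranged from 7.48 over 12.1 to 21.1 CPM in GV and from 3.61 over 10.8 to 15.3 CPM in MI, with 11 of 15 MI oocytes below the GV median and a log2 change of -0.29 (SE 0.22, adjusted p = 0.678). Orai1 ranged from 7.06 over 15.6 to 33.9 CPM in GV and from 6.03 over 16.4 to 33.5 CPM in MI. The 2 stages covered the same range, at a log2 change of 0.05 (SE 0.27, adjusted p = 0.972), which held its sign in 19 of the 25 fits that left out 1 oocyte and was -0.08 without MI oocytes 4, 8 and 9, a fit added after the data were seen. Gm2479 had a log2 change of -0.39 (SE 0.27, adjusted p = 0.640) there. Stim1 was at 0 in 4 of 10 GV and 8 of 15 MI oocytes, had medians of 0.105 and 0 CPM, and was too low to be tested. It reached 0.875 CPM in GV and 3.83 CPM in MI, the latter on 7 counts in MI oocyte 15, the library of lowest depth.

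Camk2g ranged from 179 over 231 to 268 CPM in GV and from 157 over 205 to 447 CPM in MI, and Ppp3ca from 5.17 over 10.1 to 22.3 CPM in GV and from 5.77 over 10.2 to 38.8 CPM in MI, where without TMM scaling the medians were 10.7 and 10.2 CPM. The highest value of both came from MI oocyte 15, the library of lowest depth. The log2 changes were 0.05 for Camk2g (SE 0.14, adjusted p = 0.953) and 0.11 for Ppp3ca (SE 0.26, adjusted p = 0.935), and without that oocyte they were -0.05 and -0.08. None of 27 transcripts of these genes passed in batch B by edgeR or DESeq2. By edgeR 2 had an unadjusted p under 0.05, against 7.11% of all, and 0.0% of 22717 transcripts passed. DESeq2 passed 120 of the whole table. In transcript usage 0 of 26 passed by edgeR or limma. By edgeR 1 had an unadjusted p under 0.05, against 3.21% of all, and 0.0% of 16502 passed, while limma passed 19. For annotated 3′ untranslated region length, with the same limit, 0 of 7 genes passed with limma, where 0.0303% of 3300 genes passed. Of these 7, 1 had an unadjusted p under 0.05, Camk2g at a log2 change of 0.01 (adjusted p = 0.879), against 5.42% of all.

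Whether the change to MII differed from the change to MI was tested directly over all 37 oocytes, although batch and stage cannot be told apart in such a difference. None of the 10 genes passed, by edgeR, DESeq2 or on HTSeq counts, where 5.46% of the 15083 genes tested passed, and 0 had an unadjusted p under 0.05, against 17.7% of all. The whole table gave 823 genes by edgeR, 1158 with DESeq2, 1600 with no filter on low counts and 319 on HTSeq counts. The difference for Orai1 was -0.62 (SE 0.42, adjusted p = 0.481), so its fall in MII was not shown to be missing from MI. The difference for Trpm7 was -0.74 (SE 0.37, adjusted p = 0.301) and that for Itpr1 was 0.40 (SE 0.24, adjusted p = 0.416).

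Other genes of the pathway passed between GV and MII in a share near that of the whole table. Of 76 genes in 4 lists, 54 were tested, and 6 rose and 6 fell, where 20.6% of all genes passed, with a median log2 change of 0.05 beside 0.01. Such counts set no list apart. Of the 20 genes that make IP3 or serve the store, 15 were tested, 2 rose and 2 fell, beside the 20.6% of all genes. Plcb1, a phospholipase C, fell from a median of 32.9 CPM (16.5 to 44.3) to 14.2 CPM (10.9 to 16.7), a log2 change of -1.19 (SE 0.22, adjusted p = 0.00167), with 5 of 6 GV oocytes above every MII oocyte. Hspa5, a chaperone of the endoplasmic reticulum, had a log2 change of -0.59 (adjusted p = 0.0289). Itprid2, a partner of IP3 receptors, rose by 0.56 (adjusted p = 0.0346) and Canx, the chaperone calnexin, by 0.42 (adjusted p = 0.0491). Itpr3, the remaining IP3 receptor, was scarce, with medians of 2.10 and 1.97 CPM and a log2 change of 0.09 (adjusted p = 0.913), and Plcz1, the sperm gene, was at 0 in every oocyte but MII oocyte 1, the library with the most genes detected, where its 0.206 CPM is below the 0.259 to 0.319 CPM that a count of 0 allows in that group.

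Of 12 further entry channels 7 were tested and 0 passed. Of 15 genes of extrusion and mitochondria 12 were tested, 2 rose and 2 fell, again beside 20.6%. Atp2c1, a calcium pump of the Golgi, rose from a median of 228 CPM (206 to 247) to 347 CPM (297 to 419.6) without overlap, a log2 change of 0.62 (SE 0.11, adjusted p = 0.00163). Among the channels of the outer mitochondrial membrane, Vdac1 rose from a median of 17.9 to 26.4 CPM, by 0.60 (adjusted p = 0.00908), while Vdac2 had a log2 change of -1.02 (adjusted p = 0.0101) and Vdac3 one of -0.78 (adjusted p = 0.00419). The stages of Vdac1 and of Vdac3 did not overlap either, as was so for 9.79% of all genes.

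Of the 29 genes of the response, 20 were tested, 2 rose and 2 fell, near the 20.6% of all genes. Calm2, which encodes calmodulin, fell from a median of 214 CPM (157 to 283) to 92.4 CPM (62.6 to 140.1), without overlap, at a log2 change of -1.16 (SE 0.22, adjusted p = 0.00201). Wee1, an inhibitory kinase of the cell cycle, had a log2 change of -1.19 (adjusted p = 0.0121), and Wee2, its oocyte form and a target of the egg's kinase, rose by 0.43 (adjusted p = 0.0462). Ppp3r1, the regulatory subunit of calcineurin, rose by 0.42 (adjusted p = 0.0398). Fbxo43, which holds the arrest at metaphase II, had medians of 115 and 152 CPM and a log2 change of 0.39 (adjusted p = 0.0721), passing with DESeq2 (0.0494) and without GV oocyte 2 (0.0391).

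With spike-in library sizes the 6 genes that rose turned negative, at -0.12 for Atp2c1, -0.14 for Vdac1, -0.22 for Itprid2, -0.31 for Canx, -0.34 for Ppp3r1 and -0.30 for Wee2, and none passed (adjusted p from 0.256 to 0.660). That scale also moved the median of all genes to -0.72. Several of the calls lie near the threshold and were lost without many of the 12 oocytes, each left out in turn, while the log2 change kept its direction. Canx lost its call in 11 of these 12 fits (log2 changes from 0.34 to 0.49), Wee2 in 9 (0.37 to 0.50), Ppp3r1 in 7 (0.34 to 0.48), Itprid2 in 6 (0.45 to 0.64) and Hspa5 in 6 (-0.69 to -0.46). With all 37 oocytes fitted and batch as a term, the call was lost for Vdac1 (0.66, adjusted p = 0.412), Wee1 (-1.12, 0.0840), Hspa5 (-0.54, 0.167), Canx (0.48, 0.125), Itprid2 (0.61, 0.136) and Ppp3r1 (0.47, 0.141). With no filter on low counts it was lost for Vdac1 (0.58, adjusted p = 0.0804), Canx (0.40, 0.145), Itprid2 (0.53, 0.108), Ppp3r1 (0.39, 0.156) and Wee2 (0.41, 0.143), and on HTSeq counts for Canx (0.45, 0.0611) and Ppp3r1 (0.44, 0.0714).

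From GV to MI 0 of the 50 pathway genes tested passed by edgeR or DESeq2, beside 0.145% of all genes by edgeR and 177 genes by DESeq2. With all 37 oocytes fitted 1 passed, where 149 of all 15083 genes tested did. That gene was Plcb3, a phospholipase C named here after its values were seen (log2 change 3.13, adjusted p = 0.0398). Its median in MI was 2.11 CPM, with 173 CPM in MI oocyte 15, the library of lowest depth, and within batch B its log2 change was 3.16 (adjusted p = 0.133) and 1.00 without that oocyte (adjusted p = 0.435). The difference between the changes to MII and to MI passed for 3 of 57, near the 5.46% of all genes, and was negative in these 3: Plcb1 at -1.53 (SE 0.34, adjusted p = 0.00413), Calm2 at -0.96 (SE 0.23, adjusted p = 0.00945) and Vdac2 at -0.95 (SE 0.29, adjusted p = 0.0466), the last short of the threshold on HTSeq counts (0.0565). Plcb1 had medians of 18.7 CPM in GV and 26.8 CPM in MI, and a log2 change of 0.41 there (adjusted p = 0.463).

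As a description, the genes most like these in level were sought over the 37 oocytes, with log2 CPM centred on each batch, among 11804 genes. Itpr1 followed Hsp90ab1 (Pearson r = 0.82), Pcnx (0.81) and Baz1b (0.80). The nearest gene was Hirip3 for Itpr2 (0.75), Eloa for Trpm7 (0.83), Clptm1 for Cacna1h (0.63), Tbcb for Orai1 (0.71), Plekha8 for Atp2a2 (0.80), Ankrd17 for Atp2b1 (0.82), Wwc2 for Camk2g (0.87) and Lactb for Ppp3ca (0.70). The points share their libraries and depth, and Stim1 was too low to be compared.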

How the data were processed

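RNA of 37 single oocytes, 1 library each, was sequenced by the authors after Smart-seq2 amplification. Per the labels, reads were trimmed with Trim Galore 0.6.4 and aligned to mm10 with STAR 2.7.6a; the deposited unit is the count, from HTSeq 0.12.4, and the expected count, from RSEM 1.3.1. No strand in counting is stated. IDs were matched without their version to GENCODE M21 on GRCm38, for 54723 genes and 138789 transcripts.

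Expected counts were rounded and the 92 spike-ins left out. Features passing filterByExpr (minimum count 10) were scaled by TMM and tested with edgeR 4.0.16 (quasi-likelihood; diffSpliceDGE for usage), and 3′ untranslated region length with limma 3.58.1, in R 4.3.3, with p adjusted over all features tested. Stages were compared within batch, and the difference of the changes over all 37 oocytes. Alternatives were DESeq2 1.42.0, RLE scaling, no filter, HTSeq counts and leaving out the gene like ribosomal RNA. Further ones were spike-in library sizes, all oocytes with batch as a term, and a replicate block. Each oocyte was left out in turn for genes within a batch only. For transcripts, usage and untranslated region length, only MII oocyte 1 (batch A) or MI oocyte 15 (batch B) was left out. For the difference, they were left out together. Levels are CPM on TMM-scaled sizes; TPM came from transcript counts and lengths. Python 3.11.15 with pandas 2.3.3, NumPy 2.4.6 and matplotlib 3.10.9 made the tables and figures. Each test was tested on simulated data, where the usage test missed most of the changes put in.

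Members and lists were chosen with earlier results of these data known. Named were all 10 members, their transcripts with at least 10% of the gene's expected counts in the mean of a group or passing a test, up to 3 genes passing per list and direction, always Plcz1, Itpr3, Fbxo43 and Wee2 (1 more gene of this rule is not reported here), and, for likeness, the 3 genes nearest Itpr1 and the 1 nearest each other member.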

Additional observations from a re-analysis of the deposited data

Results flagged for a closer look

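An oocyte lying far from the others of its group was found for Cacna1h in GV oocyte 4 of batch B, at 21.1 CPM with the next at 14.6, for Orai1 in GV oocyte 2 of batch A, at 11.7 CPM with the next at 23.5, and for the genes detected in MII oocyte 1 of batch A, 29518 with the next at 22244. Such a test was made 36 times, 30 of them on the levels of the 10 genes, and chance gives about 1 in 20. The 15 MI oocytes, a group too large for this test, were left out of it.

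A change to MII in batch A that differed from the change to MI in batch B was found by edgeR for Plcb1 (log2 difference -1.53, adjusted p = 0.00413), Calm2 (-0.96, adjusted p = 0.00945) and Vdac2 (-0.95, adjusted p = 0.0466), 3 of 57 pathway genes tested, near the 5.46% of all genes that passed. Stage, batch and place of maturation cannot be told apart in these differences, and their cause was not tested.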

How the results depend on the processing

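For the 10 genes and the named pathway genes, 412 values under the alternatives kept direction and side of the threshold in 354. They kept direction but lost the call in 22 and gained it in 6, and turned direction, with or without losing the call, in 30. Leaving out each oocyte gave 503, 48, 4 and 33 in the same order. Named transcripts gave 177, 2, 1 and 16 of 196, and 56, 1, 0 and 5 of 62 without MII oocyte 1 or MI oocyte 15. All 9 and 15 values of untranslated region length stayed the same, and of 80 median levels 33 moved by over 1 SD, all higher on HTSeq counts, while CPM without TMM scaling moved 0 and turned the order of 2 pairs of medians (Camk2g from GV to MII, Ppp3ca from GV to MI). Except where stated, the cause was not tested. At these depths Stim1 was too low to be tested in batch B.

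From GV to MII in batch A, the genes passing among the 10 were 2 with no filter and 2 with DESeq2 (Orai1, Trpm7), 3 with spike-in library sizes (Orai1, Trpm7, Cacna1h) and 0 with all 37 oocytes; without 1 oocyte they were 0 to 2. The whole table went from 2662 to 5596 with spike-ins and 1234 with all oocytes, and the 12 pathway genes to 19 and 6. For transcripts 2 passed with DESeq2 (Orai1-202, Atp2b1-207) and 2 with spike-ins (Orai1-202, Trpm7-204), and 0 without MII oocyte 1, and with no filter the 1 passing was Cacna1h-201; the table went from 2089 to 3419 with DESeq2 and 5142 with spike-ins. Usage went from 311 to 637 with limma and 207 at a minimum count of 50.

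Spike-in sizes turned Itpr1 to -0.50, Itpr2 -0.44, Atp2a2 -0.29, Atp2b1 -0.51, Camk2g -0.49, Atp2c1 -0.12, Canx -0.31, Fbxo43 -0.34, Itpr3 -0.73, Itprid2 -0.22, Ppp3r1 -0.34, Vdac1 -0.14 and Wee2 -0.30, and Atp2a2-203 to -0.27, Atp2b1-201 -0.55, Atp2b1-208 -0.40, Camk2g-203 -0.57, Itpr1-205 -0.37 and Itpr2-202 -0.44; the scale itself shifted the median of all genes. Ppp3ca turned to 0.00231 with HTSeq counts and 0.0245 with all oocytes. In usage, limma turned Atp2b1-201 to 0.0804, Atp2b1-208 to -0.68 and Trpm7-201 to 0.52. Without 1 oocyte the range was -0.95 to 0.11 for Stim1, -0.22 to 0.18 for Ppp3ca and -0.18 to 0.44 for Itpr3, and Ppp3ca-202 turned to 0.0324 without MII oocyte 1.

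The replicate numbers do not pair the oocytes. Correlations of the 6 same-numbered pairs of batch A ran from -0.33 to 0.34 and of the 10 pairs of batch B from -0.15 to 0.11, and a GV oocyte was nearest its own number in 1 pair of batch A and 0 of batch B. With the number as a block, 0 of the 10 genes passed in batch A (Orai1 -0.61, adjusted p = 0.128), 1587 of the table, 7 pathway genes (without Vdac2 at -0.96, adjusted p = 0.0537, Canx, Itprid2, Ppp3r1 and Wee2), and 0 of the transcripts (Orai1-202 -0.997, adjusted p = 0.0835; 627 of the table), with Atp2a2-202 turned to 0.0266 and Trpm7-201 to 0.0390. In batch B this fit also left out MI oocytes 11 to 15, whose numbers no GV oocyte has, and the parts of the 2 steps cannot be told apart; it gave 0 of the table and turned Orai1 to -0.0848, Itpr3 to -0.0688, Trpm7-201 to 0.34 and Trpm7-202 to 0.0426.

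From GV to MI in batch B, 18 genes of the table became 44 with no filter, 177 with DESeq2, 149 with all oocytes, 0 with HTSeq counts with or without MI oocytes 4, 8 and 9, and 39 with RSEM counts without these, a fit chosen after seeing the data; without 1 oocyte they were 0 to 97. With all oocytes 1 pathway gene passed (Plcb3, 3.13; 1.00 within batch B without MI oocyte 15). Transcripts went from 0 to 2 with no filter and 120 with DESeq2, usage from 0 to 19 with limma, and untranslated region length from 1 to 0 at 50 counts. Itpr1 turned to 0.0149 with HTSeq counts without MI oocytes 4, 8 and 9, and Orai1 to -0.0806 with RSEM counts without these. Wee2 turned to -0.000182 without the gene like ribosomal RNA, -0.00945 without those oocytes and -0.00638 with all oocytes. In usage, limma turned Camk2g-203 to -0.61, Itpr1-201 to 0.20 and Itpr1-205 to -0.18. Without 1 oocyte the range was -0.0530 to 0.11 for Trpm7, -0.0453 to 0.20 for Orai1, -0.0456 to 0.0817 for Camk2g, -0.0815 to 0.26 for Ppp3ca and -0.0293 to 0.0306 for Wee2. Without MI oocyte 15, Camk2g-203 turned to -0.0585 and Ppp3ca-202 to -0.14, and in usage Camk2g-203 to -0.00550 and Itpr1-205 to -0.00313.

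For the difference, 823 genes became 1600 with no filter, 1158 with DESeq2, 319 with HTSeq counts and 374 with these without MI oocytes 4, 8 and 9. The 3 pathway genes became 5 with no filter (with Orai2, and Plcb3 at -3.19, which was -1.11 without MII oocyte 1 and MI oocyte 15 in the filtered fit) and 7 with DESeq2 (with Erp44, Wee1, Atp2c1 and Wee2). With RLE scaling Atp2c1 passed as well, at a positive difference (0.57, adjusted p = 0.042). Cacna1h had no direction to turn, at -4.496e-06 in the main fit. It was 0.00903 with RLE, 0.00720 with DESeq2, 0.26 with HTSeq counts and 0.23 with these without the 3 oocytes. Atp2b1 turned to -0.0150 with no filter, -0.0123 with HTSeq counts and -0.0508 with these without the 3 oocytes, and Ppp3ca to 0.22 without MII oocyte 1 and MI oocyte 15.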
